A study of Mus musculus with 6 samples.

Results

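Passage 6 (P6) was compared with passage 1 (P1) in cultures of wild-type mouse embryonic fibroblasts (MEFs), primary connective-tissue cells grown out of mouse embryos. Each replating of a culture adds a passage. The comparison took in 6 of the 6 libraries of the series and 16962 genes with enough reads to test, of 55487 genes in the deposited table. The P1 group held 1 library of vehicle-treated cells, 1 of cells given α-amyrin and 1 of cells given β-amyrin, and the P6 group held the same 3 treatments. Both amyrins, isomeric triterpene alcohols of plants, were given at 20 µM for 3 days. The labels call P1 cells non-senescent and P6 cells senescent. Each P6 library was paired with the P1 library of the same treatment, so that a compound effect shared by both passages drops out of the passage change. The sources used here do not give the vehicle, the strain, the embryo age or the sex.

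No condition had a replicate library. With treatment as a block, the p-values and standard errors below rest on how far the passage change differed among the treatment pairs. That spread may be technical, or may hold differences between treatments or between cultures, and these cannot be told apart. For macrophage genes it includes the low values of the P1 β-amyrin library, described below. Whether separate cultures stand behind the libraries of 1 passage is not in the labels. Nor do the labels say that the P6 cultures descended from the P1 cultures, so passage and isolate cannot be told apart. The labels name no sorting step. In such bulk RNA, fewer cells of a type and less RNA per cell cannot be told apart either.

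Cultured mouse fibroblasts stop dividing after a few replatings, a state called replicative or culture-induced senescence. The arrest is held by the retinoblastoma protein RB and the tumour suppressor p53. CDK inhibitors keep RB active, active RB keeps E2F transcription factors from activating their target genes, and the DREAM complex keeps genes of mitosis silent. Senescent cells are known to stay metabolically active, to enlarge, to gain lysosomes and to lose lamin B1 from the nuclear envelope.

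Levels are in CPM, each count divided by the TMM-scaled size of its library, as the cpm function of edgeR gives it. A gene was called when the quasi-likelihood test of edgeR for passage, with treatment as a block, gave a Benjamini-Hochberg adjusted p below 0.05. Changes are log2 fold changes of P6 over P1 with their standard error (SE), n = 3 libraries a passage. Values of 3 libraries are always in the order vehicle, α-amyrin, β-amyrin. Of the 16962 genes, 5095 (30.0%) were called higher and 4939 (29.1%) lower at P6. The counts of each gene list below are to be read beside these shares. At least 2-fold higher were 1684 genes (9.93%), and at least 2-fold lower were 1117 (6.59%). The CPM of the passages did not overlap for 10973 of the 16962 genes (64.7%). The same held for 2778 of the 2801 genes called at least 2-fold, so a lack of overlap in a gene named below is common. The direction was the same in all 3 treatment pairs for 10013 of the 10034 called genes. The calls were made on the same 3 pairs, which favours such agreement, so it is not separate support. The log2 ratios of any 2 of the 3 pairs, which share no library, had Pearson correlations of 0.875 to 0.879 across genes, which are not independent replicates.

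Total counts per library were 18798418 to 28752332. The P1 β-amyrin library stood apart from the other P1 libraries, at -83.2 on the first principal component where the P1 vehicle and P1 α-amyrin libraries were both at -51.6 and the P6 libraries at 56.6 to 66.3. It held fewer macrophage transcripts. Over the 19 macrophage markers, among them Ptprc, Csf1r, Adgre1 and Cd68, the summed level was 379, 330 and 45.7 CPM at P1 and 5535, 5655 and 3945 CPM at P6. The 14 fibroblast markers, among them Col1a1, Pdgfrb and Prrx1, summed to 37583 to 45414 CPM at P1 and 51817 to 57692 CPM at P6, but 10 of the 14 fell and 2 rose, with a median of -0.48. Without Fn1, which is one of them, the sum was 26789 to 31826 CPM at P1 and 22862 to 27587 CPM at P6, and the passages overlapped. Of 15 markers of T, B and NK cells 6 had no count in any library, Cd3e among them, and the list summed to at most 2.57 CPM in a library. Summed markers of 4 other tissues were lower at P6, with counts over tested members. The sums went from between 251 and 308 CPM to at most 19.1 CPM for mesothelium (12 of 12 tested fell), from between 114 and 131 to at most 23.0 CPM for skeletal and cardiac muscle (11 of 13 fell and 1 rose), from between 147 and 154 to at most 35.4 CPM for endothelium (5 of 5 fell), and from between 44.8 and 53.8 to at most 9.40 CPM for epithelium (5 of 6 fell). Flt1 alone held 111, 105 and 116 CPM of the endothelial sums at P1 and 21.7, 20.5 and 22.7 CPM at P6. Only 5 of the 12 endothelial markers were tested. In the cartilage and bone list 8 of 10 tested members fell and 2 rose, with a median of -1.82. Its sum nevertheless went from 1025, 804 and 927 CPM at P1 to 3227, 3697 and 4253 CPM at P6. Spp1 alone held 472, 290.5 and 354 CPM of these sums at P1 and 2905, 3465 and 3984 CPM at P6. Sex-linked genes did not separate the passages. Xist, the noncoding RNA that coats the inactive X, lay at 733, 690.2 and 707 CPM at P1 and 773, 709 and 692 CPM at P6, and its change of 0.03 ± 0.04 was not called (edgeR adjusted p = 0.594). The Y-linked genes Ddx3y, Eif2s3y, Kdm5d and Uty had 0 counts in all 6 libraries, where 3 counts, the limit that a 0 allows, would be at most 0.160 CPM.

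The largest gains in the share of counts were those of Fn1 and Thbs1, which encode secreted matrix proteins. The matrix glycoprotein fibronectin, encoded by Fn1 (ENSMUSG00000026193, mm10 chromosome 1, 71585520 to 71653200), rose from 13589, 10795 and 11486 CPM at P1 to 30105, 28955 and 30466 CPM at P6, a change of 1.33 ± 0.06 (edgeR adjusted p = 1.12e-05). All 3 P6 libraries lay above all 3 P1 libraries, and 64.7% of all tested genes had passages that did not overlap. Thbs1 (ENSMUSG00000040152, mm10 chromosome 2, 118111876 to 118127133), which encodes the matricellular protein thrombospondin 1, rose from 11379, 10235 and 12340.5 CPM at P1 to 24185, 20684 and 23142 CPM at P6, a change of 1.003 ± 0.05, with no overlap between the passages. Fn1 alone took 1.20% of CPM at P1 and 2.98% at P6, and Thbs1 1.13% and 2.27%. Spp1, the secreted phosphoprotein osteopontin, rose from 472, 290.5 and 354 CPM at P1 to 2905, 3465 and 3984 CPM at P6, a change of 3.23 ± 0.19. The vehicle library was the lowest of the 3 at P6 and the highest of the 3 at P1. The other genes among the 8 largest gains in mean CPM were Lyz2, Ctsb, Timp2, Lrp1 and Fth1. Timp2, an inhibitor of matrix metalloproteinases, rose by 1.31 ± 0.06, and Lrp1, an endocytic receptor, by 0.73 ± 0.05. Fth1, the heavy chain of the iron store ferritin, rose by 2.07 ± 0.11.

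The 8 largest losses in mean CPM were led by H19 (ENSMUSG00000000031, mm10 chromosome 7, 142575529 to 142578143), an imprinted noncoding RNA of fetal tissues, which fell from 5768, 8508 and 6750.3 CPM at P1 to 617, 938 and 754 CPM at P6, a change of -3.19 ± 0.04 (edgeR adjusted p = 3.32e-07). The annotated genes Gm27483 and Gm27786, also among the 8, lie within H19, so their reads cannot be told apart from those of H19. The others were Col1a1, Scd2, Serpinh1, Acta2 and Sparc. Serpinh1, the collagen chaperone of the endoplasmic reticulum, fell from 2476, 2154 and 2382 CPM at P1 to 1249, 1093 and 1270.5 CPM at P6, a change of -0.96 ± 0.04. Col1a1, the collagen I chain, fell by 0.29 ± 0.04, and its passages overlapped: P1 α-amyrin at 11859 CPM lay below P6 vehicle at 12622 CPM. Scd2, a fatty acid desaturase, fell by 1.53 ± 0.07. Among genes at 100 CPM or more, the lowest changes beside H19 were those of Igf2 (-3.74), the amino acid transporter gene Slc38a4 (-3.24), Eln for elastin (-2.96), the cell-surface proteoglycan gene Gpc3 (-2.799) and Pdgfra (-2.46). The highest, at 4.35 to 5.296, were Lyz2, Ms4a7, C1qa, Fcrls, Adgre1, C1qb, Trem2 and C1qc, all known from macrophages. Of these 8 folds 6 moved by over 1.5 times when a library or pair was left out: without the β-amyrin pair Lyz2, C1qb and C1qc had 4.63, 3.75 and 3.76, without the vehicle pair C1qa and Ms4a7 had 5.37 and 5.83, and without the P1 vehicle library Fcrls had 5.31.

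**Figure D1:**
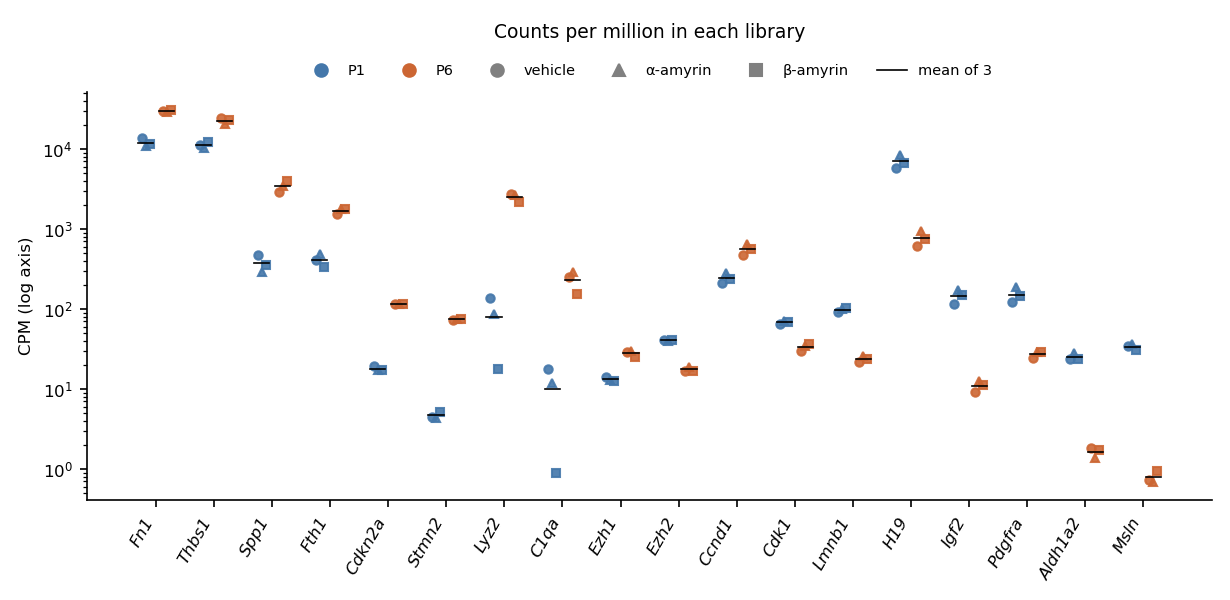
CPM on a log axis for 18 genes in each library, P1 in blue and P6 in orange, with circles for vehicle, triangles for α-amyrin and squares for β-amyrin, and a bar at the mean of 3. For Lyz2 and C1qa the P1 β-amyrin square lies below the other P1 points, while the 3 P1 points of Cdkn2a lie between 17.2 and 19.4 CPM.

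**Figure D2:**
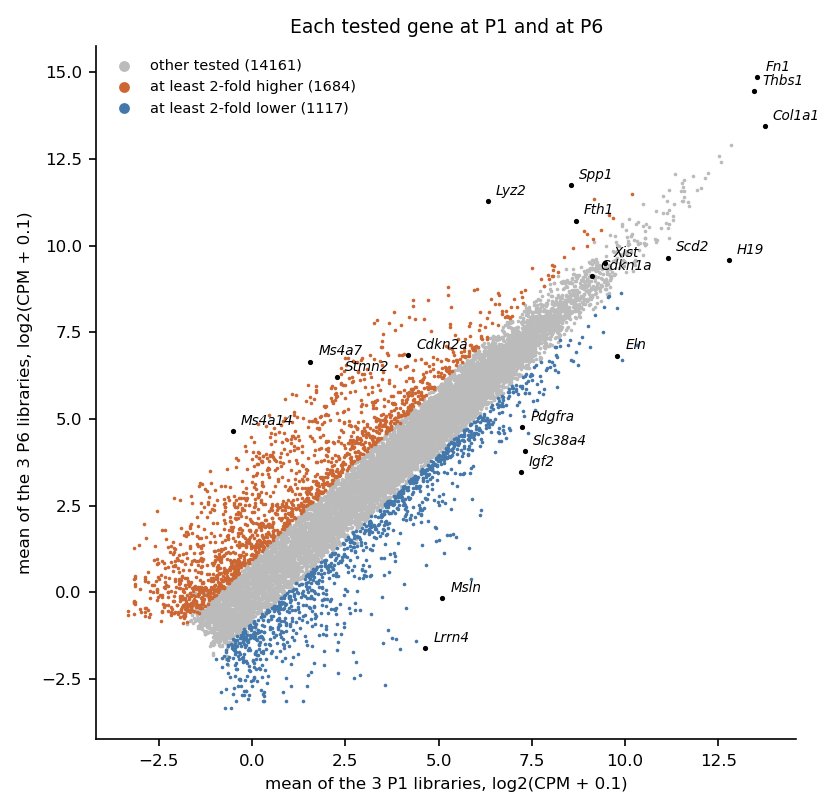
Mean log2(CPM + 0.1) of the 3 P6 libraries against that of the 3 P1 libraries for 16962 tested genes, with 1684 genes called at least 2-fold higher in orange and 1117 called at least 2-fold lower in blue. H19, Igf2 and Msln lie below the diagonal and Lyz2, Spp1 and Stmn2 above it.

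Few genes met a strict rule for a switch between nearly absent and present. Under the rule of less than 1 CPM in all 3 libraries of one passage and at least 20 CPM in all 3 of the other, 1 gene came on, Ms4a14, and 2 went off, Msln and Lrrn4. Genes that peaked below 20 CPM, such as Gata4 and Fcgr2b described below, cannot meet this rule. Ms4a14 lay at 0.997, 0.714 and 0.0804 CPM at P1 and 25.8, 28.2 and 21.3 CPM at P6. It was lowest in P1 β-amyrin, as the macrophage markers were, and the part of macrophages in it was not tested. Msln, the mesothelial surface protein mesothelin, lay at 34.2, 37.00 and 30.6 CPM at P1 and 0.719, 0.6902 and 0.955 CPM at P6, and Lrrn4, another gene of mesothelium, at 22.97, 28.9 and 22.7 CPM at P1 and 0.169, 0.319 and 0.199 CPM at P6.

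The machinery of the cell cycle split into groups that fell and groups that rose. Cdkn2a, which encodes the inhibitors p16 and p19, rose from 19.4, 17.2 and 17.4 CPM at P1 to 115, 116 and 115 CPM at P6, a change of 2.68 ± 0.06 (edgeR adjusted p = 9.71e-07), and no P1 library came near a P6 library. Cdkn2b, for the related inhibitor p15, rose by 0.52 ± 0.06. Cdkn1a, for p21, had a change of 0.01 ± 0.04 that was not called (edgeR adjusted p = 0.922), at 533, 566 and 558 CPM at P1 and 524, 572 and 567 CPM at P6. Cdkn1c, for the imprinted inhibitor p57, fell from 49.98, 69.1 and 56.9 CPM at P1 to 10.4, 13.4 and 11.9 CPM at P6, a change of -2.297 ± 0.06. Trp53, which encodes p53, fell by 0.62 ± 0.04, and Mdm2, its ubiquitin ligase and target, rose by 0.19 ± 0.04 (edgeR adjusted p = 0.00659).

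Cyclins of the growth-factor response went the other way from those of later phases. Ccnd1 (ENSMUSG00000070348, mm10 chromosome 7, 144929931 to 144939925), the cyclin D1 gene that mitogens induce in G1, rose from 211, 281 and 238 CPM at P1 to 477, 654 and 567 CPM at P6, a change of 1.22 ± 0.04 (edgeR adjusted p = 3.98e-06). Every P6 library lay above every P1 library, and within each passage the α-amyrin library was the highest. Ccnd2, for cyclin D2, rose by 0.71 ± 0.06, and Cdk4, their kinase partner, fell by 0.61 ± 0.05. Of 21 cyclins, CDKs and inhibitors 13 fell and 4 rose; Ccnf, Ccnb1 and Ccna2, cyclins of S phase and mitosis, fell by 1.33, 1.52 and 1.17, and Cdk1, the mitotic kinase, fell from 65.7, 70.6 and 67.9 CPM at P1 to 30.00, 34.1 and 36.3 CPM at P6.

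Of 19 genes of the E2F, RB and DREAM group 10 fell and 7 rose, with a median of -0.25. Over all tested genes 29.1% were called lower and 30.0% higher. Mybl2 and Foxm1, activators of mitotic genes, fell by 1.41 ± 0.09 and 1.22 ± 0.08. E2f7 and E2f8, atypical E2Fs that repress in S phase, fell by 1.63 ± 0.08 and 0.98 ± 0.10. E2f1 and E2f2, activator E2Fs, rose by 0.55 ± 0.07 and 1.26 ± 0.17. Rbl2, which encodes the p130 pocket protein of the DREAM complex, rose from 40.5, 40.9 and 36.3 CPM at P1 to 66.4, 69.7 and 61.2 CPM at P6, a change of 0.74 ± 0.05. Rb1 rose by 0.68 ± 0.10, and Rbl1, the p107 member that dividing cells use, fell by 0.36 ± 0.08.

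The counts of the DNA repair lists stand beside 30.0% higher and 29.1% lower over all tested genes. Of 22 genes of homologous recombination and the Fanconi pathway, which mend breaks and crosslinks against a sister copy, 18 fell and 1 rose, with a median of -0.70. Fancb, a subunit of the Fanconi core, fell by 1.43 ± 0.13. Of 21 genes of mismatch and base excision repair 14 fell and 1 rose; Exo1, an exonuclease of mismatch repair, fell by 1.596 ± 0.12 and Ung, the uracil glycosylase, by 1.302 ± 0.13. Of 19 genes of end joining and nucleotide excision repair, which do not need a sister copy, 6 rose and 4 fell, the median being 0.09. These counts lay near the shares over all tested genes. Dclre1c, the nuclease Artemis of end joining, rose by 0.91 ± 0.10, and Ddb2, the damage sensor of nucleotide excision, by 0.84 ± 0.08. Polq, the polymerase of the alternative end-joining route, fell by 1.52 ± 0.10. No test compared these lists with each other.

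Of 18 genes of the damage checkpoint 15 fell and none rose. Chek1, the checkpoint kinase of stalled forks, fell from 11.9, 12.4 and 12.9 CPM at P1 to 5.796, 5.89 and 6.09 CPM at P6, a change of -1.07 ± 0.09, and the passages did not overlap. Timeless and Clspn, which stabilise forks, fell by 1.302 ± 0.12 and 1.23 ± 0.09, and Chek2, the kinase of double-strand breaks, had 0.11 ± 0.10 (edgeR adjusted p = 0.384). Of 14 genes of telomerase and shelterin 6 fell and 1 rose, beside 29.1% lower and 30.0% higher over all tested genes. Dkc1, a telomerase and snoRNA protein, fell by 1.301 ± 0.06, and Pot1b, a shelterin protein of single-stranded telomere ends, rose by 0.65 ± 0.14.

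Genes for packing and marking chromatin fell in most lists. Of 19 genes of cohesin and condensin, the rings that hold and fold chromosomes, 15 fell and none rose, and the median was -0.60. Smc4, a condensin core subunit, fell from 135, 143 and 157 CPM at P1 to 58.7, 66.6 and 60.96 CPM at P6, a change of -1.22 ± 0.06. The cohesin core genes Smc1a, Smc3 and Rad21 fell by 0.40, 0.54 and 0.45. Of 22 histone chaperones, variants and HMG proteins 17 fell and none rose; Hmgb2 and Hmgn2, chromatin-bending and nucleosome-binding proteins, fell by 1.47 ± 0.07 and 1.52 ± 0.07. Of 13 genes of the nuclear envelope 8 fell and 3 rose. Lmnb1, for lamin B1, fell from 90.7, 99.8 and 104 CPM at P1 to 21.9, 26.2 and 23.6 CPM at P6, a change of -2.04 ± 0.06, and Lbr, the lamin B receptor, fell by 1.44 ± 0.10. Syne1 and Sun2, which couple the nucleus to the cytoskeleton, rose by 0.89 ± 0.06 and 0.61 ± 0.05.

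The alternative catalytic subunits of polycomb repressive complex 2, which methylates histone H3, moved in opposite directions. Ezh2 (ENSMUSG00000029687, mm10 chromosome 6, 47530139 to 47595341), the subunit of dividing cells, fell from 41.5, 39.9 and 41.2 CPM at P1 to 16.6, 19.01 and 16.99 CPM at P6, a change of -1.22 ± 0.07 (edgeR adjusted p = 2.26e-05). Ezh1 (ENSMUSG00000006920, mm10 chromosome 11, 101191115 to 101226463), the subunit of resting cells, rose from 14.2, 12.8 and 12.5 CPM at P1 to 28.7, 30.1 and 24.99 CPM at P6, a change of 1.08 ± 0.08 (edgeR adjusted p = 4.89e-05). Each gene had its 3 P6 values clear of its 3 P1 values, as 64.7% of all tested genes did. Cbx7, a reader of that mark in polycomb complex 1, rose by 1.04 ± 0.17, and Suz12, a core subunit of complex 2, fell by 0.53 ± 0.06. Of 20 polycomb genes 13 fell and 4 rose.

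Of 12 tested genes of DNA methylation 6 fell and 3 rose. Dnmt1, the maintenance methyltransferase, fell by 1.06 ± 0.05 and its partner Uhrf1 by 1.45 ± 0.06. Tet1, a dioxygenase that starts demethylation, fell by 1.71 ± 0.12, while Tet2, of the same family, rose by 0.57 ± 0.07.

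Genes that supply growth fell broadly. All 26 listed genes of ribosome biogenesis fell, with a median of -0.81, beside 0.00 over all tested genes. Nop58, a core protein of snoRNA particles, fell from 142, 141 and 169 CPM at P1 to 57.2, 63.7 and 66.1 CPM at P6, a change of -1.27 ± 0.06. Fbl, the rRNA methyltransferase fibrillarin, fell by 1.097 ± 0.05. Mycn and Myc, transcription factors that drive ribosome genes, fell by 2.65 ± 0.20 and 0.82 ± 0.10. The smallest change of the list was that of Rrp1, at -0.18 ± 0.04, which was not called without the P1 α-amyrin library (-0.17, edgeR adjusted p = 0.0528). Without the β-amyrin pair 26 of 26 were lower.

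Of 25 genes of nucleotide synthesis 20 fell and 3 rose. Rrm1 and Rrm2, the ribonucleotide reductase subunits of S phase, fell by 1.43 ± 0.05 and 1.55 ± 0.05, while Rrm2b, the p53-induced subunit, rose from 15.9, 16.3 and 18.2 CPM at P1 to 23.4, 24.4 and 26.9 CPM at P6, a change of 0.57 ± 0.07. Of 16 genes of serine and one-carbon metabolism 13 fell and none rose; Gldc, of the glycine cleavage system, fell by 2.24 ± 0.28, Psat1, of serine synthesis, by 1.37 ± 0.07 and Shmt2, the mitochondrial serine hydroxymethyltransferase, fell by 1.098 ± 0.09. Of 19 amino acid transporters 12 fell and 6 rose. Slc7a5 and Slc7a11, carriers of large neutral amino acids and of cystine, fell by 1.49 ± 0.07 and 1.499 ± 0.13. Slc43a2 and Slc7a8 rose by 3.52 ± 0.13 and 2.75 ± 0.26.

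Of 29 nuclear pore and transport genes 27 fell, with a median of -0.67; Nup43 and Nup107, scaffold nucleoporins, fell by 1.13 ± 0.11 and 1.04 ± 0.05. Of 26 splicing factors 22 fell and 1 rose; Hnrnpa1 fell by 1.34 ± 0.04 and Hnrnpd by 1.23 ± 0.05. Of 20 cytosolic tRNA synthetase genes 19 fell, with a median of -0.45, and none changed 2-fold. The chaperonin and prefoldin list had 12 of 13 lower, and the mitochondrial ribosome list had 19 of 26 lower. The proteasome was split. Of its 28 genes 21 fell, by at most 0.40, and 2 rose: Psmb8, by 2.02 ± 0.20, and Psmb9, by 1.06 ± 0.17, the inducible subunits of the immunoproteasome. Psmb8 lay at 2.84, 2.79 and 1.21 CPM at P1 and 9.52, 9.66 and 8.08 CPM at P6, lowest in P1 β-amyrin as the macrophage markers were; the part of macrophages in it was not tested.

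Processed pseudogenes, intronless copies of messenger RNAs, had 21.3% of 809 called lower and 4.45% called higher. Reads of a parent gene can be counted on such copies, and what part of the calls this makes was not tested. Among 314 lincRNA genes 31.5% were called higher and 15.9% lower. Malat1 and Neat1, nuclear noncoding RNAs, rose by 1.13 ± 0.05 and 1.08 ± 0.06. The median change per chromosome lay between -0.10, on chromosome 18, and 0.10, on the mitochondrial genome.

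**Figure D3:**
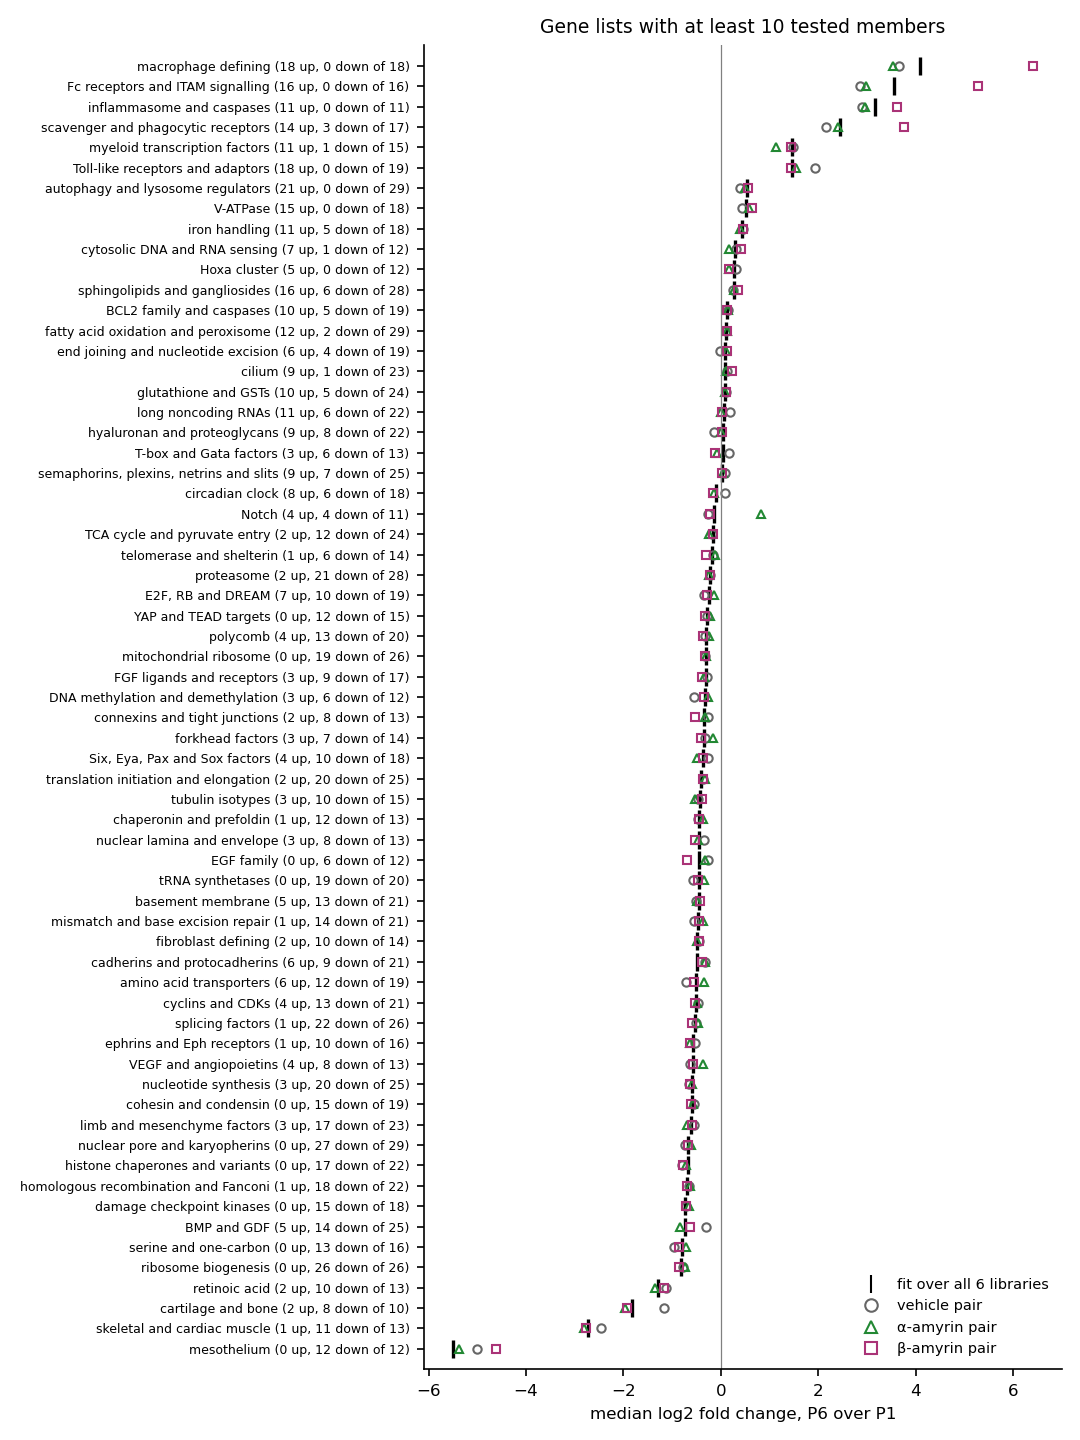
Median log2 fold change of P6 over P1 for gene lists with at least 10 tested members: the bar is the fit over all 6 libraries and the open symbols are the 3 treatment pairs. Immune lists lie at the top, mesothelium at -5.50 at the bottom, and the β-amyrin pair stands apart from the other pairs for macrophage markers, at 6.41 against 3.66 and 3.54.

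Hox genes encode transcription factors that fibroblasts keep as a record of where along the body they arose, in 4 clusters named a to d and numbered from head to tail. No Hoxa or Hoxd gene was called lower, and no Hoxb or Hoxc gene was called higher. Of 12 tested genes of the Hoxa cluster list, which includes an antisense RNA, 5 rose, and of 7 of the Hoxd list 6 rose. Of 8 Hoxb genes 5 fell, and of 9 Hoxc genes 4 fell. The medians were 0.27 for Hoxa, 0.68 for Hoxd, -0.56 for Hoxb and -0.27 for Hoxc. Over all tested genes 30.0% were called higher and 29.1% lower, and no test compared the clusters.

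Among the higher ones, Hoxd10 lay at 3.53, 2.96 and 3.26 CPM at P1 and 8.33, 5.57 and 6.41 CPM at P6, a change of 1.05 ± 0.13 (edgeR adjusted p = 0.000558), and Hoxa10 at 22.4, 20.97 and 23.3 CPM at P1 and 38.96, 33.4 and 34.9 CPM at P6, a change of 0.69 ± 0.07. Both had every P6 library above every P1 library. Among the lower ones, Hoxb2 lay at 14.6, 11.99 and 12.9 CPM at P1 and 6.35, 5.42 and 6.41 CPM at P6, a change of -1.12 ± 0.10, and Hoxc10 at 13.5, 14.7 and 14.3 CPM at P1 and 8.800, 9.72 and 10.5 CPM at P6, a change of -0.55 ± 0.09. Both had every P6 library below every P1 library, and 64.7% of all tested genes had passages that did not overlap. Hoxb2 and Hoxc10 overlap other transcripts, whose reads cannot be told apart from theirs if counting ignored strand. Most of these changes were under 2-fold, and a shift in the body regions sampled by each culture cannot be told apart from a change within cells. Of the 243 tested genes named in the text, 44 overlap another annotated gene that carried at least 10% of their CPM, Ccnd1, Cdk4, Rb1, Rbl2, Dkc1, Lbr, Igf2, Has2, Psmb8, Ddb2, Dbp and Per3 among them, and their values are uncertain to that extent.

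**Figure D4:**
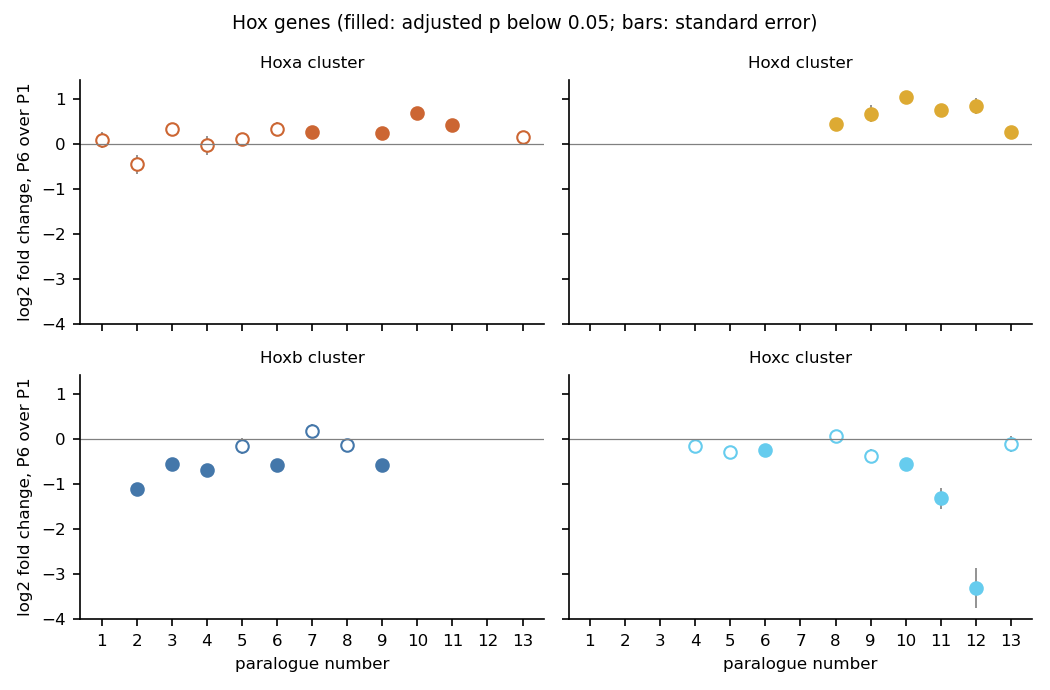
Log2 fold change of P6 over P1 against paralogue number (low at the head end, high at the tail end) for the tested genes of the 4 Hox clusters. Filled points were called and bars are standard errors; filled points of Hoxa and Hoxd lie above 0 and those of Hoxb and Hoxc below.

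Of 23 limb and mesenchyme factors 17 fell and 3 rose. The mesothelial, muscle, endothelial and epithelial markers fell in the same libraries, and their part in the results on embryonic regulators was not tested. Meox2, a homeobox gene of mesoderm, fell from 3.53, 8.09 and 5.99 CPM at P1 to 1.23, 1.59 and 1.43 CPM at P6. Prrx1, a homeobox factor of limb mesenchyme, fell by 0.34 ± 0.04. Among T-box and GATA factors, Gata4 and Tbx20 of heart and mesothelium fell by 7.51 ± 0.23 and 4.39 ± 0.27, while Tbx18 and Gata2 rose by 0.55 and 0.68. Gata4 went from 9.78, 13.2 and 12.4 CPM at P1 to 0.0423, 0.0531 and 0.0796 CPM at P6. These P6 levels are near 0, so the size of its fall is uncertain. Of 8 tested oncofetal genes 7 fell and 1 rose. Hmga2, a chromatin protein of fetal stem cells, fell from 656, 666 and 747 CPM at P1 to 246, 316 and 333 CPM at P6, a change of -1.22 ± 0.07. Igf2bp1, an RNA-binding protein of fetal growth, fell by 1.04 ± 0.05 and Peg10 by 2.23 ± 0.09.

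Most tested genes of the retinoic acid pathway, which patterns the embryo, fell. Of 13 tested members 10 fell and 2 rose, with a median of -1.29. The synthesis enzyme gene Aldh1a2 (ENSMUSG00000013584, mm10 chromosome 9, 71215789 to 71296243) fell from 23.9, 28.1 and 24.00 CPM at P1 to 1.82, 1.38 and 1.71 CPM at P6, a change of -3.92 ± 0.13 (edgeR adjusted p = 3.98e-06). Crabp1, an intracellular carrier of retinoids, fell by 3.26 ± 0.13. Rarb, a receptor that is itself a retinoic acid target, fell by 1.29 ± 0.13, and Cyp26b1, the enzyme that breaks retinoic acid down, by 1.499 ± 0.13. Dhrs3, which returns retinal to retinol, rose by 1.35 ± 0.07, and Rxra, the partner receptor, by 0.69 ± 0.06. Mesothelium is a known site of Aldh1a2, and all 12 mesothelial markers fell in the same libraries; their part in the result was not tested.

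Of 25 BMP and GDF genes 14 fell and 5 rose. The ligand gene Gdf6 fell by 3.699 ± 0.10. Bmp7, another ligand gene, was called lower at levels near 0, 0.537, 0.6796 and 1.05 CPM at P1 and 0.0846, 0 and 0 CPM at P6, and its fitted change of -4.46 ± 0.78 was -3.55 without the β-amyrin pair and -7.45 without the vehicle pair. Grem1, a secreted BMP antagonist, rose from 169, 183 and 188 CPM at P1 to 644, 685 and 622 CPM at P6, a change of 1.85 ± 0.05, while the antagonist Nog fell by 1.88 ± 0.27. In the hedgehog pathway 5 of 9 tested members fell and none rose; Gli2, the main activator, fell by 1.997 ± 0.09 and Hhip, an inhibitor that the pathway induces, by 2.56 ± 0.17. Ligands Shh and Ihh did not pass the filter.

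Of 17 tested FGF genes 9 fell and 3 rose, with a median of -0.31. Fgf10 and Fgf7, ligands that mesenchyme sends to epithelium, rose by 1.19 ± 0.07 and 0.79 ± 0.06. The feedback genes Spry1, Spry2 and Spry4 fell by 0.89, 0.71 and 0.77. Of 13 VEGF and angiopoietin genes 8 fell and 4 rose; Vegfa fell by 0.60 ± 0.11 and Pgf, the placental growth factor, by 2.22 ± 0.24. The receptor genes Flt1 and Kdr, known from endothelium, fell by 2.36 and 2.16. The endothelial markers, which include both, fell in the same libraries, and their part in this list was not tested; the defining endothelial genes Pecam1 and Cdh5 were at most 0.762 and 0.510 CPM in a library, and Cldn5 had no count. Of 15 YAP and TEAD genes, which report stretch and spreading, 12 fell and none rose. Ankrd1 fell from 73.5, 49.7 and 84.1 CPM at P1 to 15.5, 17.7 and 21.96 CPM at P6, a change of -1.897 ± 0.13, the only one of 2-fold or more in that list, and Ajuba and Ccn1 fell by 0.82 and 0.50. Of 16 ephrins and Eph receptors 10 fell and 1 rose; Epha3 and Ephb2 fell by 1.78 ± 0.06 and 1.49 ± 0.08.

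Rspo2, a secreted amplifier of Wnt signalling, rose from 10.4, 22.5 and 15.3 CPM at P1 to 107, 122 and 115 CPM at P6, a change of 2.88 ± 0.16. Stmn2 (ENSMUSG00000027500, mm10 chromosome 3, 8509360 to 8561606), a tubulin-binding protein known from neurons, rose from 4.53, 4.35 and 5.23 CPM at P1 to 72.6, 74.8 and 75.4 CPM at P6, a change of 3.98 ± 0.08 (edgeR adjusted p = 6.99e-07). In P1 β-amyrin Rspo2 lay between the other P1 libraries and Stmn2 above them. For both genes the passages did not overlap, as for 64.7% of all tested genes. Of the other 8 tested markers of neurons and glia 1 rose and 4 fell. Map2, a microtubule-associated protein of neurons, rose by 0.79 ± 0.07, and Tubb3, neuronal tubulin, fell by 0.83 ± 0.08. Of 15 genes of the tubulin list, which holds Stmn2 too, 10 fell and 3 rose. Tuba1a, Tuba1b and Tubb5, main tubulin genes, fell by 1.01, 0.83 and 0.67.

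Of 18 tested clock genes 8 rose and 6 fell, beside 30.0% higher and 29.1% lower over all tested genes. Dbp and Per3, genes that the CLOCK and BMAL1 activators drive, rose by 1.55 ± 0.10 and 1.45 ± 0.09. Arntl, which encodes BMAL1, fell by 0.50 ± 0.10, and Nfil3, a repressor of Dbp targets, by 1.13 ± 0.12. The sources used here do not give the time of day of harvest, and its part in these changes was not tested.

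Surface and matrix genes changed in both directions within families. Of 21 basement membrane genes 13 fell and 5 rose. Lama1 and Lama4, laminin chains, fell by 2.71 ± 0.12 and 1.07 ± 0.07, while Lama5 and Lama3 rose by 1.04 ± 0.05 and 1.47 ± 0.29. Col4a3, Col4a4 and Col4a6, chains of specialised basement membranes, fell by 3.02, 2.49 and 2.29, and Col4a1, the main chain, by 0.45. Among cadherins Cdh13 rose by 1.57 ± 0.10 and Cdh11, known from mesenchyme, fell by 0.60 ± 0.05. Fat3, a giant cadherin, rose by 2.67 ± 0.12 and Dchs1, a binding partner in that family, fell by 2.23 ± 0.06. Has2, the main hyaluronan synthase of fibroblasts, fell from 65.8, 39.9 and 65.02 CPM at P1 to 11.8, 8.97 and 11.4 CPM at P6, a change of -2.396 ± 0.09, while Hyal1 and Cemip, which degrade hyaluronan, rose by 1.06 ± 0.11 and 0.92 ± 0.08. Vcan, the hyaluronan-binding proteoglycan versican, fell by 1.57 ± 0.04. Of the glypicans, Gpc3 fell by 2.799 ± 0.07 and Gpc4 rose by 1.251 ± 0.05.

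Most listed genes of myeloid immunity rose. Across the 10 immune lists 94 of 117 tested genes rose and 7 fell, the median being 2.40, beside 30.0% higher and 29.1% lower over all tested genes. The macrophage markers moved with them: 18 of 19 were tested, all 18 rose, and Cd163, the remaining one, did not pass the filter. Their summed CPM was 14.6, 17.2 and 86.3 times higher at P6 in the vehicle, α-amyrin and β-amyrin pairs, and their part in the results on these lists was not tested. Defining markers of granulocytes and mast cells summed to at most 1.97 CPM in every library.

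Among receptors that bind antibody or carry the ITAM motif, with their kinases and adaptors, all 16 tested rose, with a median of 3.56. Fcgr2b, the inhibitory Fc receptor, rose by 5.53 ± 0.42, or 4.94 without the β-amyrin pair. It lay near 0 at P1, at 0.230, 0.170 and 0 CPM, and at 6.35, 6.11 and 7.16 CPM at P6. Syk and Btk, kinases of the cascade, rose by 2.63 ± 0.16 and 3.601 ± 0.29. Of 19 Toll-like receptor genes 18 rose. Those of the endosome, Tlr7, Tlr8, Tlr9 and Tlr13, rose by 3.34 to 4.27, with their chaperone Unc93b1 at 2.87, and the shared adaptor Myd88 rose by 0.33 ± 0.06. Tlr3 and Tlr4, which fibroblasts are also known to express, rose by 1.45 ± 0.18 and 1.43 ± 0.07. Tlr4 lay at 17.9, 16.3 and 14.6 CPM at P1 and 43.8, 47.9 and 39.8 CPM at P6. Without the β-amyrin pair all 16 genes of the antibody-receptor list and 16 of the 19 of the Toll-like list were still called higher.

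All 11 tested genes of the inflammasome list rose; Casp1, the protease that matures interleukin 1, rose from 1.42, 0.917 and 0.0804 CPM at P1 to 12.6, 12.4 and 10.1 CPM at P6, a change of 3.89 ± 0.38, with P1 β-amyrin the lowest library and a change of 4.49 without P6 vehicle. Nlrp3 rose by 3.16 ± 0.20. Of 9 NADPH oxidase genes 7 rose; Cybb, the catalytic subunit of the phagocyte oxidase, rose by 4.22 ± 0.39, and Nox4, the oxidase of fibroblasts, by 0.40 ± 0.09. Of 12 tested sensors of cytosolic nucleic acid 7 rose and 1 fell, the median being 0.29: Mavs, the adaptor of RNA sensors, rose by 0.56 ± 0.06, Sting1, the adaptor of DNA sensing, fell by 0.68 ± 0.08, and Cgas had 0.03 ± 0.13 (edgeR adjusted p = 0.84). None of 4 tested NKG2D ligands, surface flags for killer lymphocytes, was called.

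Chemokine receptors included Cxcr4, the receptor of CXCL12, which rose from 1.34, 1.39 and 1.05 CPM at P1 to 37.8, 33.7 and 31.99 CPM at P6, a change of 4.76 ± 0.11 (edgeR adjusted p = 9.66e-07). Its P1 β-amyrin value was 1.05 CPM beside 1.34 and 1.39 CPM in the other P1 libraries. Ackr3, the decoy receptor for CXCL12, fell by 0.50 ± 0.08.

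The P1 β-amyrin library was set beside the passage change measured in the other 4 libraries, a comparison chosen after the values were seen. Of 14384 genes at 1 CPM or more in both other P1 libraries, 237 (1.65%) were in P1 β-amyrin below 0.5 times the lower of those libraries. Among 945 genes called at least 2-fold higher at P6 in the vehicle and α-amyrin pairs 209 (22.1%) were, and among 947 called at least 2-fold lower 6 (0.634%) were. All 17 macrophage markers in this set were below it. Both measures use the P1 vehicle and P1 α-amyrin libraries, and no test was made of the difference in shares. Of the same 945 higher genes 501 (53.0%) lay within 1.25-fold of the mean of the other P1 libraries in P1 β-amyrin, with 0.5 CPM added to each, beside 90.5% of all 14384 genes and 85.5% of the 947 lower ones. Among the 501 were Cxcr4, Stmn2, Spp1, Rspo2 and Cdkn2a. So were Cacna1a, a neuronal calcium channel gene, Itgbl1, Slitrk5 and Sod3, the extracellular superoxide dismutase. Some genes of the 501 that are not named here are also known from myeloid cells, and the part of macrophages was not tested. Sod3 rose from 10.2, 10.8 and 9.33 CPM at P1 to 51.7, 37.9 and 51.8 CPM at P6, a change of 2.21 ± 0.13, and Cacna1a rose from 8.09, 10.5 and 9.05 CPM at P1 to 59.3, 67.2 and 56.9 CPM at P6, a change of 2.73 ± 0.07. In these 2 genes the passages did not overlap, as in 64.7% of all tested genes.

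**Figure D5:**
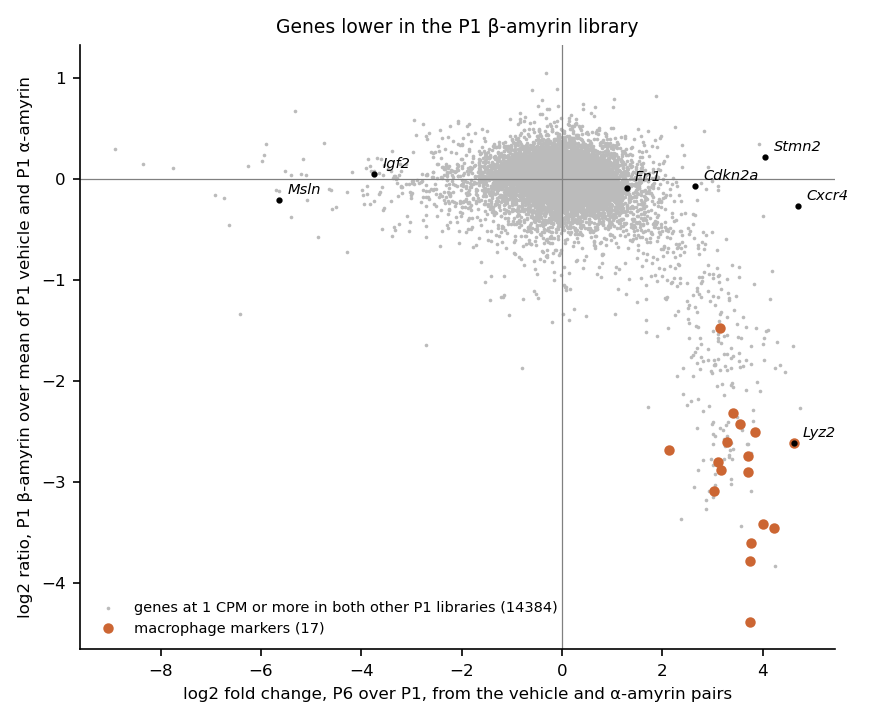
Log2 ratio of P1 β-amyrin over the mean of P1 vehicle and P1 α-amyrin (0.5 CPM added) against the log2 fold change of P6 over P1 from the vehicle and α-amyrin pairs, for 14384 genes. The 17 macrophage markers lie at the lower right, while Stmn2, Cxcr4 and Cdkn2a lie near 0 on the vertical axis.

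Genes of the lysosome and of degradation rose with small steps. Of 18 V-ATPase genes, whose products acidify lysosomes, 15 rose and none fell, with a median of 0.52. Atp6v1a, the catalytic subunit, rose from 236, 219 and 202 CPM at P1 to 363, 365 and 396 CPM at P6, a change of 0.78 ± 0.07. Atp6v0d2, an isoform of osteoclasts and macrophages, rose from 0.0767, 0.476 and 0.281 CPM at P1 to 3.85, 5.52 and 16.99 CPM at P6. The P6 β-amyrin library was the highest, and the change of 4.83 ± 0.38 was 4.07 without the β-amyrin pair and 5.81 without the α-amyrin pair. Of 29 regulators of autophagy and the lysosome 21 rose and none fell; without the β-amyrin pair 20 rose and 1 fell. Gabarapl1, an autophagosome protein, rose by 0.91 ± 0.07, and Sesn1, a p53-induced brake on the growth kinase mTORC1, by 1.32 ± 0.15. The lysosomal regulators Tfeb and Tfe3 rose by 0.53 and 0.32, and Mitf, of the same family, rose from 7.17, 8.49 and 5.23 CPM at P1 to 31.4, 29.5 and 18.7 CPM at P6, a change of 1.92 ± 0.10.

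Of 28 sphingolipid genes 16 rose and 6 fell. The hydrolases and helpers Hexa, Gm2a and Psap, which take gangliosides apart in lysosomes, rose by 1.29 to 1.502. B4galnt1 and St3gal5, ganglioside synthases, rose by 1.59 ± 0.06 and 0.91 ± 0.07, while St8sia1, the synthase of the branch to GD3, fell from 0.959, 0.782 and 0.643 CPM at P1 to 0, 0 and 0.119 CPM at P6. Its fitted change of -4.03 ± 0.76 was -3.31 without the vehicle pair and -7.43 without the β-amyrin pair. Smpd3, a neutral sphingomyelinase, fell by 2.99 ± 0.18. Of 18 tested iron genes 11 rose and 5 fell. Slc40a1, the iron exporter ferroportin, rose by 1.78 ± 0.09, and Tfrc, the transferrin receptor that imports iron, fell from 157, 139.7 and 179.7 CPM at P1 to 50.3, 50.97 and 58.5 CPM at P6, a change of -1.57 ± 0.06. Slc11a1, an iron carrier of phagosomes, rose by 3.500 ± 0.34. The summed macrophage markers rose in the same libraries, and their part in the lysosomal, sphingolipid and iron results was not tested.

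Of 29 tested genes of fatty acid oxidation and peroxisomes 12 rose and 2 fell. Cat, for catalase, rose from 59.8, 55.01 and 54.8 CPM at P1 to 133, 124 and 114 CPM at P6, a change of 1.13 ± 0.05, and Acox3, an oxidase of peroxisomes, rose by 1.35 ± 0.06. In the TCA cycle list 12 of 24 fell and 2 rose, none by 2-fold; Idh2 fell by 0.83 ± 0.05. Of 24 tested genes of glutathione metabolism 10 rose and 5 fell; Gclm, of glutathione synthesis, rose by 0.77 ± 0.09, and Chac1, which degrades glutathione, fell by 1.27 ± 0.23. Glb1, which encodes the lysosomal galactosidase behind the senescence stain, rose from 42.7, 43.6 and 39.3 CPM at P1 to 77.8, 90.8 and 81.02 CPM at P6, a change of 0.99 ± 0.06. Of 19 tested BCL2-family and caspase genes 10 rose and 5 fell; Bmf and Bcl2l11, promoters of cell death, rose by 1.97 ± 0.15 and 0.72 ± 0.06, and Bcl2 had -0.05 ± 0.09 (edgeR adjusted p = 0.66). Of 23 genes of the cilium, the antenna that cells build when they stop dividing, 9 rose and 1 fell, the median being 0.09; Rpgrip1l, of the transition zone, rose by 0.81 ± 0.09.

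Promoter sequence was available for part of these genes. RefSeq promoters of build GRCm38.p6, from 250 bases before to 50 after the start, were used for 9202 tested genes with a single promoter in the table, of which 886 were called at least 2-fold higher and 618 at least 2-fold lower. Motifs were searched on both strands. CHR (TTTGAA), an element through which DREAM binds mitotic genes, was found in 12.3% of the tested promoters, in 18.9% of those of lower genes and in 12.6% of those of higher genes. CCAAT, bound by the factor NF-Y, was found in 39.0%, 45.1% and 36.6%. Both together were found in 5.26%, 11.2% and 4.63%. The ETS motif GAGGAAGT, bound by the myeloid factor PU.1, was found in 3.08% of the tested promoters, 2.59% of those of lower and 7.56% of those of higher genes. Over all 22862 single promoters the shares were 18.5% for CHR, 38.2% for CCAAT, 7.21% for both together and 3.32% for GAGGAAGT. No test was made of these shares, and a match is only the presence of letters.

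The shares of the other motifs follow. The interferon-response element ISRE was found in 3.01% of tested, 3.56% of lower and 5.53% of higher promoters. The CLEAR E-box GTCACGTG of lysosomal genes was found in 4.10%, 4.21% and 2.37%, the NRF2 element TGANNNNGC in 42.7%, 43.9% and 41.2%, and TATAAA in 7.49%, 9.71% and 11.2%. The E2F sites TTTCGCGC and TTTGGCGC were found in 0.619% and 0.935% of tested, 0.971% and 1.78% of lower, and 0.339% and 0.451% of higher promoters. The sterol element SRE was found in 0.0543% of tested, 0.162% of lower and 0.113% of higher promoters. Over all single promoters the shares of these 6 and of TATAAA were 3.58%, 2.27%, 41.5%, 0.328%, 0.503%, 0.0831% and 14.8% for ISRE, CLEAR, NRF2, the 2 E2F sites, SRE and TATAAA. A match to 1 motif can overlap a match to another.

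The 250 bases before the start are shown for genes at least 2-fold lower that hold both CHR and CCAAT there. They have the highest mean CPM among such listed genes of chromatin and genome upkeep. Both motifs together were chosen as more frequent in promoters of lower genes, at 11.2%, than in tested promoters, at 5.26%. The share of CHR alone in lower genes, 18.9%, lay near the 18.5% of all single promoters. Smc2, a condensin core subunit, lies at chr4:52438971-52439220 on the plus strand and went from a mean of 118 to 54.7 CPM. Ncapd2, a condensin subunit, lies at chr6:125191587-125191836 on the minus strand and went from 105.8 to 46.5 CPM. Lbr, the lamin B receptor, lies at chr1:181842402-181842651 on the minus strand and went from 80.5 to 29.8 CPM. Sequences read 5′ to 3′ on the strand of the gene, the last base lies just before the start, and capitals mark CHR and CCAAT matches on either strand.
Smc2: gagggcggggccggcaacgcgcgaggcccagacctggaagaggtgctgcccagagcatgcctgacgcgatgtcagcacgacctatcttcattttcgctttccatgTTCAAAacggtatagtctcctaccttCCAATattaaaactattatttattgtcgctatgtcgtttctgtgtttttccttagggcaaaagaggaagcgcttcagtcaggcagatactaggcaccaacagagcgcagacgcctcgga
Ncapd2: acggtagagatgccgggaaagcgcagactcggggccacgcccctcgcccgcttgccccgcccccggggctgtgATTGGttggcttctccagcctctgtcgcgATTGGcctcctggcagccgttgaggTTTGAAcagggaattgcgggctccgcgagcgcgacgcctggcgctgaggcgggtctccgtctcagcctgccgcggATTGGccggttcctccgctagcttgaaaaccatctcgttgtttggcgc
Lbr: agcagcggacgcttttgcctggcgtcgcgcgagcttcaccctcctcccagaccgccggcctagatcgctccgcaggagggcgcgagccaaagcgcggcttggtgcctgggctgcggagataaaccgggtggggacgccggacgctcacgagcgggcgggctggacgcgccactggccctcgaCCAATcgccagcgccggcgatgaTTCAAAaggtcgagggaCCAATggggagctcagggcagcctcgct

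For the higher genes the promoters shown hold the ETS motif and belong to the listed immune or macrophage genes with the highest mean CPM, capitals marking that motif. C1qc, a complement C1q chain, lies at chr4:136892915-136893164 on the minus strand and went from a mean of 12.6 to 220.1 CPM. Inpp5d, the phosphatase SHIP1 of myeloid signalling, lies at chr1:87620062-87620311 on the plus strand and went from 6.26 to 73.5 CPM. Vav1, an exchange factor of blood cells, lies at chr17:57278850-57279099 on the plus strand and went from 4.71 to 50.5 CPM.
C1qc: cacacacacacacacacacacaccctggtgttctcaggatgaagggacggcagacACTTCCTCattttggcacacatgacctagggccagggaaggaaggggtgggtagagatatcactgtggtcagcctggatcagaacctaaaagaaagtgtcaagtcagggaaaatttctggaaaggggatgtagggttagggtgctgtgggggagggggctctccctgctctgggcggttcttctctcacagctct
Inpp5d: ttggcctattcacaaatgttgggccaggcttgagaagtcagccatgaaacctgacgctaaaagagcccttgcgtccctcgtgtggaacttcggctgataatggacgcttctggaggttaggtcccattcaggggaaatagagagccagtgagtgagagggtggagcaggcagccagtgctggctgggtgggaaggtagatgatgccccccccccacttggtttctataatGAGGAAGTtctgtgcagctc
Vav1: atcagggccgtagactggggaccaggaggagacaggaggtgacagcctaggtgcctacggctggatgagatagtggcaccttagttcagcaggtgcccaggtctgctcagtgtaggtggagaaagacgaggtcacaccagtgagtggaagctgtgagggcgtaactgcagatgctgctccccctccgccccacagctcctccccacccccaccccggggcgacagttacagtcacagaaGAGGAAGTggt
In Inpp5d and Vav1 the motif starts 20 and 11 bases before the start, and in C1qc 195 bases before it. In Lbr the CHR match starts 45 bases before the start and CCAAT matches start 68 and 28 bases before it.

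Whether the passage change differed between vehicle and amyrin libraries was tested with a passage-by-amyrin term, with α- and β-amyrin as 2 samples of an amyrin group. It called 0 of 16962 genes by edgeR, with 451 genes at an unadjusted p below 0.05 and a smallest adjusted p of 0.467. DESeq2 called 21 genes, and limma-voom called 0. Of the DESeq2 calls, Hmgcs1, an enzyme of cholesterol synthesis, had log2 ratios of -1.43 in the vehicle pair, -2.55 in the α-amyrin pair and -2.40 in the β-amyrin pair. Idi1, another enzyme of that route, had -1.43, -2.81 and -2.76. Trib3, a stress-induced pseudokinase, had -3.33 with vehicle and -1.22 and -1.26 with α- and β-amyrin. With 2 residual degrees of freedom, a p above the threshold does not show that the passage change was alike across treatments.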

How the data were processed

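Poly(A) RNA of 6 MEF libraries was made into directional libraries per the labels' protocols. Per the submitters' processing notes, the authors used FastQC 0.11.7 and Trimmomatic 0.38 on reads, HISAT2 2.1.0 and SAMtools 1.9 on alignments to mouse build mm10, and featureCounts 1.6.3. The sources used here do not give the settings or whether counting used strand. Main tests started from the raw counts per gene that the authors deposited as whole numbers, of 18798418 to 28752332 per library. FPKM values deposited by the authors, with no formula stated, served only in alternatives.

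Genes were filtered with filterByExpr (passage as group), scaled by TMM and fitted in edgeR 4.0.16 (R 4.3.3; estimateDisp, glmQLFit, glmQLFTest) with treatment as a block, leaving 2 residual and 4.83 prior degrees of freedom. Adjusted p-values are Benjamini-Hochberg over 16962 genes, and SE is derived from the F statistic. Pair ratios used a prior count of 2. DESeq2 1.42.0 and limma 3.58.1 served as alternatives. The fit was tested on simulated data.

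The 82 gene lists and their members were chosen with earlier results of these data known. Genes were named by rule: the 8 largest gains and losses in mean CPM, the 8 highest and lowest changes among genes at 100 CPM or more, switched genes, up to 4 called members per list with mean CPM of 5 or more and the largest change, and fixed senescence and sex-linked genes. Further list members, and genes outside the lists, were named after their values were seen. Some genes that the rule picks are not reported here. Lists share 33 genes. Alternatives were other scalings and filters, DESeq2, limma on counts and on FPKM, no treatment block, and each library or pair left out.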

Additional observations from a re-analysis of the deposited data

How the results depend on the processing

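Under the 19 alternatives, the 238 called genes named in the text kept direction in all 4505 combinations that gave a value, and 9 combinations lost the call: Col1a1 and Mdm2 with no treatment block, Lama3 on log2(FPKM + 1), Rrp1 without P1 α-amyrin, and C1qb, Tlr13, Chac1, Trib3 and Vav1 with a robust prior. The counts of genes higher and lower stayed within 1.5 times their values under every alternative. The 2-fold counts of 1684 higher and 1117 lower became 640 and 389 on log2(FPKM + 1), where the added 1 shrinks changes of low genes, and 884 and 588 with a minimum of 5 CPM, where 11815 genes were tested. The passage-by-amyrin count of 0 became 21 with DESeq2, 159 with no filter and 0 to 7 with 1 library left out, the 7 being without P1 α-amyrin; the cause was not tested. Changes near 0 turned sign without being called. Xist had -0.0015 without the vehicle pair. Cdkn1a had -0.0075 with upper-quartile scaling, -0.014 on both FPKM scales, -0.0050 with no filter, -0.0056 without the α pair, -0.0020 without the β pair and -0.0079 to 0.020 with 1 library left out. Bcl2 had 0.017 without the vehicle pair and -0.14 to 0.022 with 1 library left out. Cgas had -0.054 without the vehicle pair, -0.032 without the α pair and -0.048 to 0.17 with 1 library left out. Of 82 list medians 9 changed sign under at least 1 alternative; with a minimum of 5 CPM the median of the circadian clock list went from -0.09 to 0.46 and that of neurons and glia from -0.42 to 0.47. No replicate of a condition exists, so no paired analysis beyond the treatment block was possible.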

Other observations

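Genes of the Notch pathway and of axon guidance are described here as values only. Their counts stand beside 30.0% called higher and 29.1% called lower over all tested genes. Of 11 tested Notch genes 4 rose and 4 fell. Notch3, a receptor of mural cells, rose by 0.97, while Notch1 and Hes1, a receptor and a target, fell by 0.64 and 0.82. Of 25 semaphorins, plexins, netrins, slits and their receptors 9 rose and 7 fell. Sema4d and Plxnc1, both also expressed by myeloid cells, rose by 3.42 and 2.60, and the summed macrophage markers rose in the same libraries; their part was not tested. Sema5a fell by 1.41 and Plxna4 by 1.17.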
